A study of Spirodela polyrhiza with 16 samples.

Results

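The 6 genes described here belong to sulfate uptake and reduction in the giant duckweed Spirodela polyrhiza, an aquatic plant made of floating fronds and short roots. They were taken by identifier from a list, 6 of the 20389 gene models of the deposited table, and all 6 had enough signal to be tested. They are 2 homologs of 5'-adenylylsulfate reductase 3 (Sp17g00278 and Sp13g00992), homologs of sulfate transporters 1.3 and 3.1 (Sp07g01016 and Sp03g01231), a homolog of serine acetyltransferase 5 (Sp08g00934) and a homolog of sulfite reductase 1 (Sp01g00257). The members were selected on measured values: the list was drawn up with results of these libraries known, above all the FPKM differences between plants with and without phosphate. Those differences are therefore given for the 6 genes as a description, with no test. The table names genes only by their closest Swiss-Prot homolog, so the roles given below are those of the homologs.

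All plants were of clone 9509 and grew in flasks of 250 ml with 100 ml of N-Media. On day 10 the medium was renewed, in the control flasks as full medium and in the no-phosphate flasks without KH2PO4, and on day 11 the plants of a flask were parted into fronds and roots and pooled. The 16 libraries of polyadenylated RNA form 4 groups of 4, fronds and roots from each of the 2 media, each library being the pooled tissue of 1 flask of 1 clone. Levels are FPKM (fragments scaled to gene length and library size), given as mean ± SD with n = 4 unless another n stands beside them. Changes were computed as differences of log2(FPKM + 1), which understates the change of low genes, and carry a standard error (SE).

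Plants take up sulfate through membrane transporters, and ATP sulfurylase activates it to adenylylsulfate (APS). In plastids APS reductase turns APS into sulfite, a step known for its control over the pathway, and sulfite reductase turns sulfite into sulfide. Serine acetyltransferase supplies O-acetylserine, which cysteine synthase joins with sulfide to give cysteine, the source of methionine and glutathione. APS kinase draws APS off towards sulfated compounds. Plants short of phosphate are known to put sulfolipid in the place of part of their phospholipid.

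Libraries held 6325297 to 12437151 reads, recovered from the deposited values. The tissue labels were checked on 10 homologs of chlorophyll a-b binding proteins and the small Rubisco subunit, whose summed level was 30777 to 40527 FPKM in frond libraries and 9242 to 18707 FPKM in root libraries, with none of them at 0 in either tissue. The 1 Casparian strip membrane protein of the table lay at 1.73 to 3.85 FPKM in fronds and 22.4 to 67.8 FPKM in roots. In bulk tissue, fewer cells of a type and less RNA per cell cannot be told apart. Root control library 3 and root no-phosphate library 5 had the highest sums of the frond markers in their groups, at 18707 and 16188 FPKM, and counts without both are given among the alternatives.

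**Figure D1:**
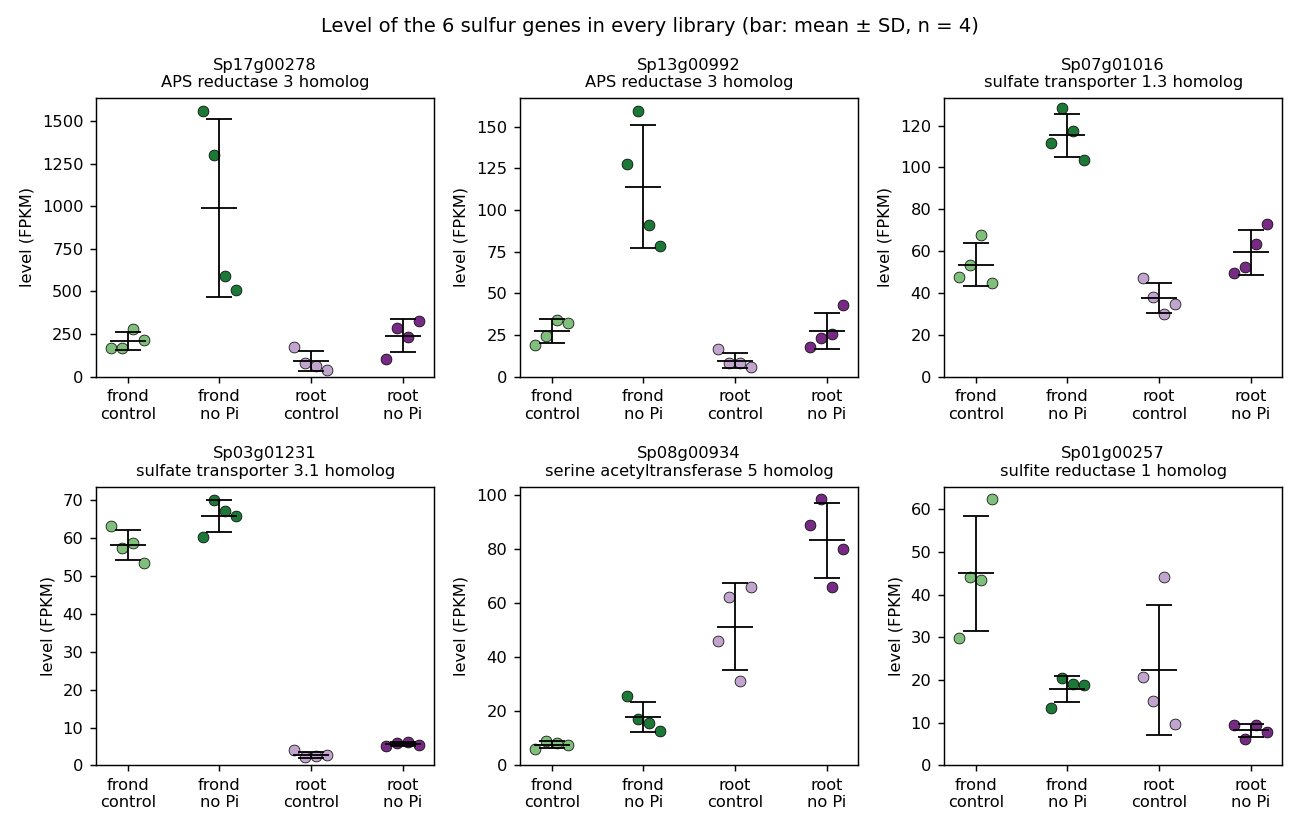
Level of each of the 6 genes (vertical axes, FPKM, starting at 0) in every library of the 4 groups (horizontal axis); points are libraries, ordered by library number from left to right, and the bars give the mean and SD (n = 4). Both APS reductase homologs and sulfate transporter 1.3 were highest in fronds without phosphate, sulfate transporter 3.1 was low in roots, serine acetyltransferase 5 was high in roots, and sulfite reductase 1 was lower without phosphate.

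Sulfate transporters of the 1.3 type load sulfate into the phloem in Arabidopsis thaliana. The homolog Sp07g01016 (chromosome 7, 7419462 to 7422136, minus strand) was read at 44.7, 47.7, 53.4 and 67.8 FPKM in the control frond libraries and at 103, 112, 118 and 128 FPKM in the no-phosphate ones. In roots its libraries were at 30.1, 35.0, 38.3 and 47.1 FPKM in full medium and at 49.4, 52.3, 63.3 and 73.0 FPKM without phosphate. Every no-phosphate library lay above every control library of the same tissue. The means went from 53.4 ± 10.3 to 115 ± 10.5 FPKM in fronds and from 37.6 ± 7.17 to 59.5 ± 10.8 FPKM in roots, which is 2.16-fold and 1.58-fold. The log2 change was 1.11 ± 0.16 (SE) in fronds and 0.65 ± 0.16 (SE) in roots. In the order of levels, control roots, control fronds and no-phosphate roots overlapped with their neighbours, and no-phosphate fronds stood above all others.

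Sp07g01016 has 3 neighbours on chromosome 7 that are also named for sulfate transporters. Sp07g01017 (7422220 to 7422675, plus strand) has only 333 bases of gene length and the same homolog, and Sp07g01018 (7436306 to 7442118) is a further homolog of transporter 1.3. Sp07g01019 (7448383 to 7454328) is named low affinity sulfate transporter 3. Sp07g01017 stood at 0.376 to 0.942 times the level of Sp07g01016 in the 16 libraries, and whether reads could be shared between them was not tested. The tissues used the copies in different proportion: Sp07g01018 lay at 0.0870 to 0.111 times the level of Sp07g01016 in fronds and at 0.528 to 1.96 times in roots. Sp07g01018 was higher in roots, with 40.9 ± 23.1 FPKM against 5.41 ± 1.08 FPKM in control fronds, and root minus frond averaged over both media gave a log2 difference of 2.18 ± 0.18 (SE; limma, adjusted p = 1.77e-08). Its frond level without phosphate was 10.9 ± 1.62 FPKM, with no overlap with control, and did not pass the test (log2 change 0.89, limma, adjusted p = 0.0611). Sp07g01019 stayed between 15.1 and 17.7 FPKM as a mean of each group.

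The homolog of sulfate transporter 3.1, Sp03g01231 (chromosome 3, 7701928 to 7712919), is named for a transporter that brings sulfate into chloroplasts in Arabidopsis. In fronds its libraries were at 53.6, 57.3, 58.8 and 63.3 FPKM in full medium and at 60.3, 65.8, 67.2 and 70.2 FPKM without phosphate. The 2 frond groups overlapped, and their means of 58.2 ± 4.01 and 65.9 ± 4.14 FPKM differed by 0.18 ± 0.13 (SE) on the log2 scale. In roots the gene was low, at 2.18, 2.45, 2.62 and 4.01 FPKM in full medium and at 5.13, 5.49, 6.05 and 6.27 FPKM without phosphate. These groups did not overlap, and the mean was 2.04-fold higher without phosphate, with a log2 change of 0.84 ± 0.13 (SE). The root values rest on 36 to 64 reads per control library and 98 to 182 reads per no-phosphate library. The summed frond markers lay at 12216 to 18707 FPKM in control roots and at 9242 to 16188 FPKM in no-phosphate roots, and their part in the root level of this gene was not tested.

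The 2 homologs of 5'-adenylylsulfate reductase 3 (APS reductase) lie on different chromosomes, Sp17g00278 on chromosome 17 (2411977 to 2414566, minus strand) and Sp13g00992 on chromosome 13 (5854912 to 5857303, plus strand). Both carry the reductase and thioredoxin domains of plant APS reductases. Sp17g00278 was at 168, 169, 214 and 282 FPKM in control fronds and at 507, 592, 1299 and 1559 FPKM in no-phosphate fronds. The no-phosphate fronds fell into a lower pair, libraries 7 and 8, and a higher pair, libraries 5 and 6, and all were above the controls. In roots the control libraries were at 39.5, 65.1, 79.7 and 175 FPKM and the no-phosphate libraries at 106, 236, 289 and 330 FPKM. The root groups overlapped, since control library 1 lay above no-phosphate library 5.

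Group means of Sp17g00278 were 208 ± 53.9 and 989 ± 519.8 FPKM in fronds and 89.9 ± 59.3 and 239.9 ± 97.4 FPKM in roots, 4.75-fold and 2.67-fold higher without phosphate. The log2 change was 2.11 ± 0.45 (SE) in fronds and 1.5 ± 0.45 (SE) in roots. Without library 5 the no-phosphate root mean was 285 ± 47.0 FPKM (n = 3), and without library 1 the control root mean was 61.4 ± 20.3 FPKM (n = 3). Its coefficient of variation ran from 25.8% in control fronds to 66.0% in control roots, so the libraries of a group differed much more in this gene than in sulfate transporter 3.1 in fronds, at 6.28% and 6.89%.

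Sp13g00992, the second homolog, had a lower level. It was at 18.9, 24.4, 32.3 and 34.0 FPKM in control fronds and at 78.4, 91.0, 127 and 159.5 FPKM in no-phosphate fronds. In roots it was at 5.77, 8.10, 8.33 and 16.6 FPKM in full medium and at 17.7, 23.3, 25.6 and 42.9 FPKM without phosphate. In this gene the libraries with and without phosphate overlapped in neither tissue, and the means were 4.17-fold higher in fronds and 2.82-fold higher in roots. The log2 changes were 2.00 ± 0.31 (SE) and 1.43 ± 0.31 (SE). For both homologs, control fronds and no-phosphate roots overlapped in level, and no-phosphate fronds were above every other library.

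The ratio of Sp17g00278 to Sp13g00992 lay between 5.97 and 12.4 in the 16 libraries. With and without phosphate it averaged 7.70 ± 1.11 and 8.34 ± 2.71 in fronds, and 8.77 ± 1.73 and 8.80 ± 2.72 in roots. The proportion between the pair differed between the groups by less than the spread within them. In the same libraries the sum of both genes ran from 45.3 to 1687 FPKM. Whether reads of the pair could be exchanged was not tested.

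**Figure D2:**
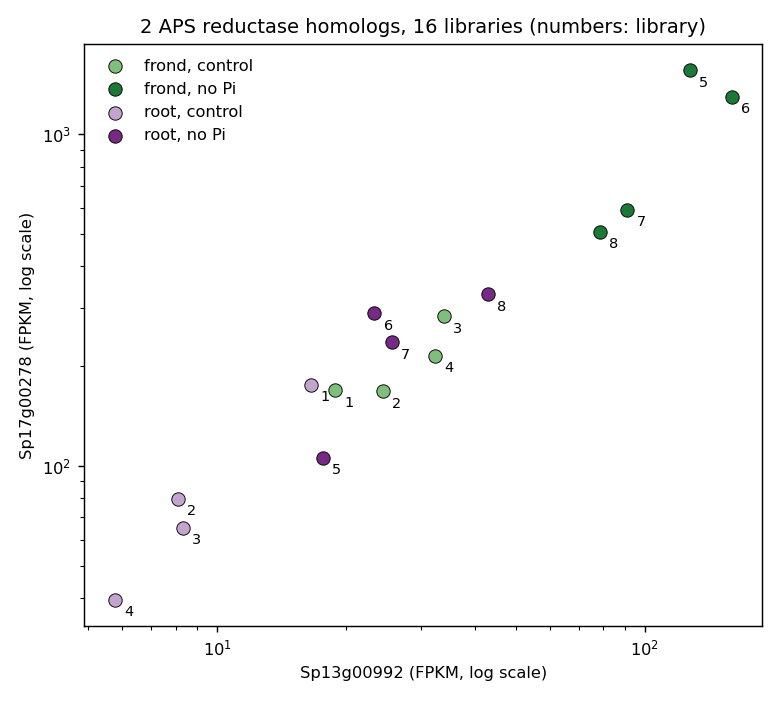
Level of the APS reductase homolog Sp17g00278 (vertical axis) against that of Sp13g00992 (horizontal axis), both in FPKM on log scales, in the 16 libraries; colours give the group and numbers the library. No-phosphate frond libraries 5 and 6 are at the top of both axes and control root library 4 at the bottom, and the ratio of the pair stays between 5.97 and 12.4.

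Among 8930 genes compared, the profile closest to either APS reductase homolog was that of the other one. Closeness was the root mean square gap between 2 profiles of log2(FPKM + 1) over 16 libraries, each centred on its own mean, and 0.32 was the gap within the pair. Next came inositol-3-phosphate synthase (Sp04g01322, gap 0.48 to Sp17g00278 and 0.39 to Sp13g00992) and a serine incorporator 3 homolog (Sp08g01150, gaps 0.51 and 0.44). For sulfate transporter 1.3 the nearest were fumarylacetoacetase (Sp12g00473, 0.20), the chloroplast chaperone dnaJ A6 (Sp01g00631, 0.20) and DETOXIFICATION 46 (Sp20g00395, 0.22). For sulfate transporter 3.1 they were a J-domain protein of chloroplast movement (Sp09g01058, 0.29), YABBY 2 (Sp09g00758, 0.31) and the chloroplast import protein TIC 55 (Sp12g00750, 0.33). Sulfate transporter 1.3 was rank 47 for Sp17g00278 and rank 39 for Sp13g00992.

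Sulfite reductase takes the product of APS reductase to sulfide. Its homolog among the 6 genes, Sp01g00257 (chromosome 1, 1362130 to 1367446), went the other way from the APS reductases. It was at 29.9, 43.5, 44.1 and 62.5 FPKM in control fronds and at 13.5, 18.8, 19.1 and 20.5 FPKM in no-phosphate fronds. In control roots it was at 9.60, 15.1, 20.8 and 44.1 FPKM, and in no-phosphate roots at 6.13, 7.88, 9.39 and 9.44 FPKM. No library without phosphate reached a control library of its tissue, by a narrow margin in roots. The means were 45.0 ± 13.4 and 17.97 ± 3.07 FPKM in fronds and 22.4 ± 15.2 and 8.21 ± 1.56 FPKM in roots, with log2 changes of -1.25 ± 0.33 (SE) and -1.15 ± 0.33 (SE). Control root library 3 carried much of its group, whose mean was 15.2 ± 5.602 FPKM without it (n = 3).

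The table holds another homolog of the same sulfite reductase, Sp03g00692, which is not among the 6. Its means with and without phosphate were 35.3 ± 3.06 and 47.9 ± 3.57 FPKM in fronds, and 34.9 ± 5.14 and 57.2 ± 13.3 FPKM in roots. Neither difference passed the test, with log2 changes of 0.43 ± 0.15 (SE; limma, adjusted p = 0.110) in fronds and 0.68 ± 0.15 (SE; limma, adjusted p = 0.0542) in roots. The ratio of Sp01g00257 to this second homolog went from 1.26 ± 0.303 with phosphate to 0.374 ± 0.0481 without it in fronds, and from 0.627 ± 0.402 to 0.150 ± 0.0529 in roots. The genes closest in profile to Sp01g00257 were aspartokinase/homoserine dehydrogenase 2 (Sp08g00740, gap 0.36), which opens the synthesis of threonine and methionine, a phosphoribosylformylglycinamidine synthase of purine synthesis (Sp14g00785, 0.37) and the organelle transcription factor MTERF9 (Sp01g00245, 0.37).

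Serine acetyltransferase makes the carbon skeleton of cysteine, and the homolog of isoform 5, Sp08g00934 (chromosome 8, 6507134 to 6508392), was mostly a root transcript. It was at 5.96, 7.59, 8.15 and 8.85 FPKM in control fronds and at 12.7, 15.7, 17.1 and 25.7 FPKM in no-phosphate fronds, without overlap. In control roots it was at 31.2, 45.9, 62.2 and 66.0 FPKM, and in no-phosphate roots at 65.9, 79.9, 89.0 and 98.5 FPKM. The root groups overlapped only in control library 4 and no-phosphate library 7. Means were 2.33-fold higher without phosphate in fronds and 1.62-fold higher in roots, with log2 changes of 1.09 ± 0.23 (SE) and 0.73 ± 0.23 (SE). The nearest profiles were those of a membrane protein of the YuiD type (Sp04g00728, gap 0.26), the chloroplast thioredoxin-like 1-1 (Sp04g01215, 0.30) and a partner protein of high-affinity nitrate transporters (Sp16g00432, 0.31).

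Over the 6 genes, 4 were higher and 1 was lower in every no-phosphate frond library than in every control one, and in roots 3 were higher and 1 was lower. Of the 16598 genes tested, 9.65% were higher and 9.46% lower in this way in fronds, and 3.45% and 1.89% in roots (5.33% in either direction). Since the genes were listed with these differences known, nothing is read from the counts. The difference between the root and the frond change was -0.61 ± 0.64 and -0.57 ± 0.44 for the APS reductases Sp17g00278 and Sp13g00992, -0.46 ± 0.22 for sulfate transporter 1.3 and 0.67 ± 0.18 for sulfate transporter 3.1 (log2, SE). It was -0.36 ± 0.32 for serine acetyltransferase 5 and 0.09 ± 0.46 for sulfite reductase 1.

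Between roots and fronds, averaged over both media, 5 of the 6 genes were at a lower level in roots and 1 at a higher one. The choice of the genes may have drawn on all 4 groups, so these differences too are given with no test. Root minus frond was -3.65 ± 0.09 (log2, SE) for sulfate transporter 3.1, whose frond mean was 20.7 times the root mean in full medium. It was -1.75 ± 0.22 and -1.69 ± 0.32 (log2, SE) for the APS reductases Sp13g00992 and Sp17g00278. Sulfite reductase 1 and sulfate transporter 1.3 had smaller differences, of -1.09 ± 0.23 and -0.72 ± 0.11 (log2, SE). Over 26 alternatives these 2 ran from -1.32 to -0.82 and from -0.78 to -0.44, a range the SE does not cover for sulfate transporter 1.3. Serine acetyltransferase 5 was higher in roots by 2.37 ± 0.16 (log2, SE), 6.72-fold in full medium and 4.68-fold without phosphate. In sulfate transporter 3.1 and serine acetyltransferase 5 no frond library overlapped a root library. Of all tested genes 40.1% had no such overlap, 18.9% being higher and 21.2% lower in roots, and nothing is read from the members' count.

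Beside the 6 genes, 67 others matched the keywords of a sulfur list (transport, activation, reduction, cysteine, glutathione and methionine synthesis, sulfolipid, sulfur-deficiency regulators), and 62 of them could be tested. In fronds 9 rose and 1 fell without phosphate (16.1% called, against 4.41% of all 16598 tested genes, 2.11% higher and 2.30% lower), with a median log2 change of 0.12 beside 0.01 over all tested genes. After scaling every library to equal total FPKM, 7 rose and 2 fell, and of all tested genes 241 rose and 590 fell. The count rests on single libraries. It was 4 without control library 4 or no-phosphate library 5, 5 without control library 1, control library 2 or no-phosphate library 6, and 6 when no-phosphate library 7 was left out. Of all tested genes, 153 to 610 were called when a frond library was left out. A fit of the 8 frond libraries alone called 20 of the list and 1772 of all tested genes. In roots 0 of the 62 passed (0.422% of all tested genes did, 0.355% higher and 0.0663% lower) by limma on FPKM, with 12 at an unadjusted p under 0.05 (16.3% of all tested genes were) and 1 lower by limma-voom on reads. Leaving out control root library 1 gave 3 calls, and leaving out no-phosphate root library 5 or 6 gave 2. Of all tested genes, 0 to 791 were called when a root library was left out.

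**Figure D3:**
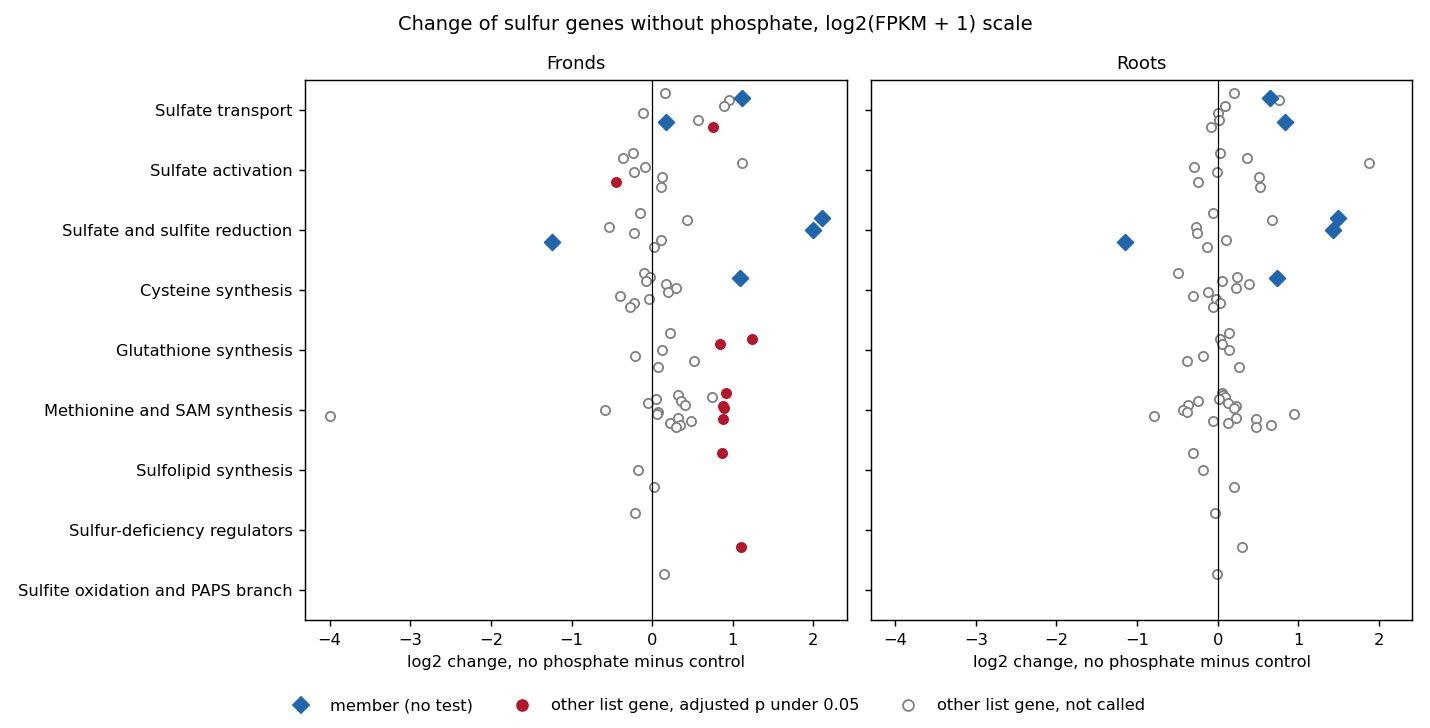
Log2 change without phosphate (horizontal axes, log2(FPKM + 1) scale) of the sulfur genes by step (vertical axis) in fronds and in roots; diamonds are the 6 genes, with no test, filled circles other list genes that passed an adjusted p of 0.05, open circles those that did not. In fronds 9 circles to the right of 0 and 1 to the left are filled, in roots none.

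In sulfate transport 1 of 6 tested genes rose in fronds, the sulfate transporter 3.3 homolog Sp18g00369, from 111 ± 9.74 to 188 ± 3.18 FPKM (log2 change 0.75 ± 0.20 (SE; limma, adjusted p = 0.0426), called in 6 of 19 alternatives). Its neighbour Sp18g00368, with the same homolog, had 71.0 ± 9.99 and 105 ± 6.78 FPKM and was not called (limma, adjusted p = 0.104). Both gene models lie on the plus strand (chromosome 18, 2141680 to 2145948 and 2146029 to 2146803). Whether these 2 are parts of 1 gene was not tested. In roots the group means of the pair were 13.3 and 13.1 FPKM, and 6.64 and 6.70 FPKM. In the activation step 1 of 8 fell, the APS kinase 3 homolog Sp09g01038, from 45.1 ± 3.83 to 33.0 ± 4.96 FPKM (log2 change -0.45 ± 0.11 (SE; limma, adjusted p = 0.0297), called in 14 of 19 alternatives). None of 6 tested genes of the reduction step and none of 10 of cysteine synthesis passed in fronds. The reduction list held the sulfite reductase homolog Sp03g00692 and homologs named only as 5'-adenylylsulfate reductase-like (Sp03g00737, Sp01g00273 and Sp03g00981). No gene named for APS reductase itself was among them, since both such homologs are members. The keywords also took in, through a shared domain, 2 neighbouring gene models each named as a fragment of ferredoxin-nitrite reductase. Whether they are parts of 1 gene was not tested. One of them, Sp18g00445, was the highest of the reduction step with 917 ± 135 and 920.3 ± 42.4 FPKM in fronds and 2541 ± 253 and 2334 ± 439 FPKM in roots.

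ATP sulfurylase, which makes the substrate of APS reductase, had 2 well-expressed homologs of opposite tissue pattern. Sp02g00744, a homolog of isoform 2 singled out after its values were seen, had 206 ± 49.8 and 442 ± 75.4 FPKM in control and no-phosphate fronds and 63.6 ± 46.1 and 191 ± 54.6 FPKM in roots. Its libraries with and without phosphate overlapped in neither tissue, but the differences did not pass the test, with log2 changes of 1.12 ± 0.42 (SE; limma, adjusted p = 0.141) and 1.87 ± 0.42 (SE; limma, adjusted p = 0.0567). It was lower in roots (log2 difference -1.61 ± 0.30 (SE; limma, adjusted p = 0.000125)). Sp03g01196, a homolog of isoform 1, was higher in roots, with 437 ± 64.0 against 110.3 ± 8.07 FPKM in full medium (log2 difference 2.08 ± 0.09 (SE; limma, adjusted p = 4.39e-12)), and had log2 changes of -0.23 and -0.01 without phosphate in fronds and roots. The ratio of Sp02g00744 to Sp03g01196 went from 1.88 ± 0.463 with phosphate to 4.79 ± 1.28 without it in fronds, and from 0.150 ± 0.108 to 0.441 ± 0.116 in roots.

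Downstream of cysteine, 2 of 7 tested genes of the glutathione list rose in fronds, both gamma-glutamylcyclotransferases, enzymes that break glutathione down. Sp05g01067 went from 70.1 ± 19.0 to 165 ± 25.9 FPKM (log2 change 1.24 ± 0.21 (SE; limma, adjusted p = 0.00748)) and its neighbour Sp05g01068 from 13.3 ± 3.72 to 24.7 ± 6.86 FPKM (0.84 ± 0.20 (SE; limma, adjusted p = 0.0279)), and they were called in 18 and 13 of 19 alternatives. In roots Sp05g01067 was at most at 1.07 FPKM and Sp05g01068 was listed at 0 in 7 of 8 libraries. The list is named for synthesis, and neither gene that rose belongs to it by role. Of 19 methionine and S-adenosylmethionine genes 4 rose in fronds. They were 3 gene models named for S-adenosylmethionine synthase, which makes the methyl donor of the cell, and 1 named for methionine synthase. Of these, Sp06g00678 and Sp06g00679 are adjacent on the same strand (chromosome 6, 4656636 to 4657211 and 4657292 to 4658919). Whether they are parts of 1 gene was not tested, and the counts are of gene models. Sp10g00570 went from 319 ± 28.3 to 588 ± 47.6 FPKM, Sp06g00679 from 74.4 ± 7.004 to 139 ± 13.9 FPKM and its neighbour Sp06g00678 from 80.8 ± 10.6 to 149 ± 17.3 FPKM. The methionine synthase Sp01g00412 went from 133 ± 12.4 to 253 ± 38.6 FPKM. In this order, their log2 changes were 0.88, 0.89, 0.88 and 0.92, and their adjusted p by limma was 0.0257, 0.00794, 0.0155 and 0.0372. They were called in 13, 19, 17 and 10 of 19 alternatives. Sp01g00412 lies beside Sp01g00413, of the same homolog name and strand, and whether they are parts of 1 gene was not tested.

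Another methionine synthase homolog, Sp09g00776, was named for its tissue difference, given below. The spread between its frond libraries is described here after its values were seen. Sp09g00776 was at 9.02, 66.5, 523 and 588 FPKM in control fronds and at 0.962, 3.41, 5.52 and 55.8 FPKM in no-phosphate fronds, and at 118 to 678 FPKM in roots. The frond change of -3.998 ± 1.14 (SE) was not called (limma, adjusted p = 0.0566).

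UDP-sulfoquinovose synthase is an enzyme of sulfolipid synthesis that draws on sulfite. Of the 3 sulfolipid genes tested, only its homolog Sp01g01157 was called higher in fronds (50.1 ± 3.87 to 92.4 ± 7.46 FPKM, limma, adjusted p = 0.00682). In roots it had 20.1 ± 2.22 and 16.4 ± 4.06 FPKM. The sulfoquinovosyl transferase SQD2 (Sp01g01794) had 82.7 ± 8.30 and 72.9 ± 4.48 FPKM in fronds and was not called. Of 2 regulators, SULFUR DEFICIENCY-INDUCED 1, a marker of sulfur shortage in Arabidopsis, rose from 24.5 ± 5.51 to 56.3 ± 24.9 FPKM in fronds (Sp14g00083, log2 change 1.10 ± 0.23 (SE; limma, adjusted p = 0.0161)). In no-phosphate fronds it was at 38.7, 40.6, 53.7 and 92.4 FPKM, with library 5 highest. The homolog of ETHYLENE INSENSITIVE 3-like 3, which in Arabidopsis governs the response to sulfur shortage, had 16.7 ± 1.78 and 14.4 ± 1.34 FPKM in fronds and 40.9 ± 4.43 and 40.4 ± 8.68 FPKM in roots (Sp11g00758, not called in either tissue).

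No gene of the list differed in its response between roots and fronds at an adjusted p of 0.05 by limma (0 of 62, and 0.00% of all tested genes). At an unadjusted p under 0.05 it was 14 of 62, and 11.1% of all tested genes, and limma-voom on reads called 0 of the 62 and 2 genes in all. So no rise called in fronds alone was shown to differ from the change in roots. Without no-phosphate root library 6 the test called 2 of the 62. Of all tested genes, 0 to 116 were called when a single library was left out.

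Between the tissues, 27 of the 62 were higher in roots and 27 lower (87.1% called, against 74.7% of all tested genes, 36.3% higher and 38.4% lower). After scaling every library to equal total FPKM it was 31 and 20, and 7785 and 4902 of all tested genes. With that scaling the median of all tested genes moved from -0.02 to 0.23 on the log2 scale. Among genes lower in roots the largest differences were those of Sp05g01067, with root minus frond at -6.20 ± 0.15 (SE; limma, adjusted p = 3.53e-15) on the log2 scale, of its neighbour Sp05g01068 at -4.20, of the sulfate transporter 3.3 pair Sp18g00368 and Sp18g00369 and of the S-adenosylmethionine synthase Sp01g00575, for which root minus frond was -3.54, -3.40 and -2.97. The methionine synthase Sp09g00776 was higher in roots by 3.44 ± 0.81 (SE; limma, adjusted p = 0.0011), though its frond and root libraries overlapped. Its root mean was 1.55 times the frond mean in full medium and 18.8 times without phosphate. The APS kinase 1 homolog Sp01g00154 was higher in roots by 2.20 ± 0.14 (SE; limma, adjusted p = 7.39e-10). S-sulfocysteine synthase (Sp06g01033), another gamma-glutamylcyclotransferase 2 (Sp15g00022) and UDP-sulfoquinovose synthase (Sp01g01157) were lower in roots, at -1.96, -1.91 and -1.87. Among the most abundant of their lists, the cysteine synthase Sp03g01277 had 224 ± 15.99 FPKM in control fronds and 269.7 ± 42.4 FPKM in control roots and was not called. The gamma-glutamylcyclotransferase family member Sp11g00232 and the tyrosine sulfotransferase Sp02g00028 were higher in roots by 0.57 and 0.47.

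**Figure D4:**
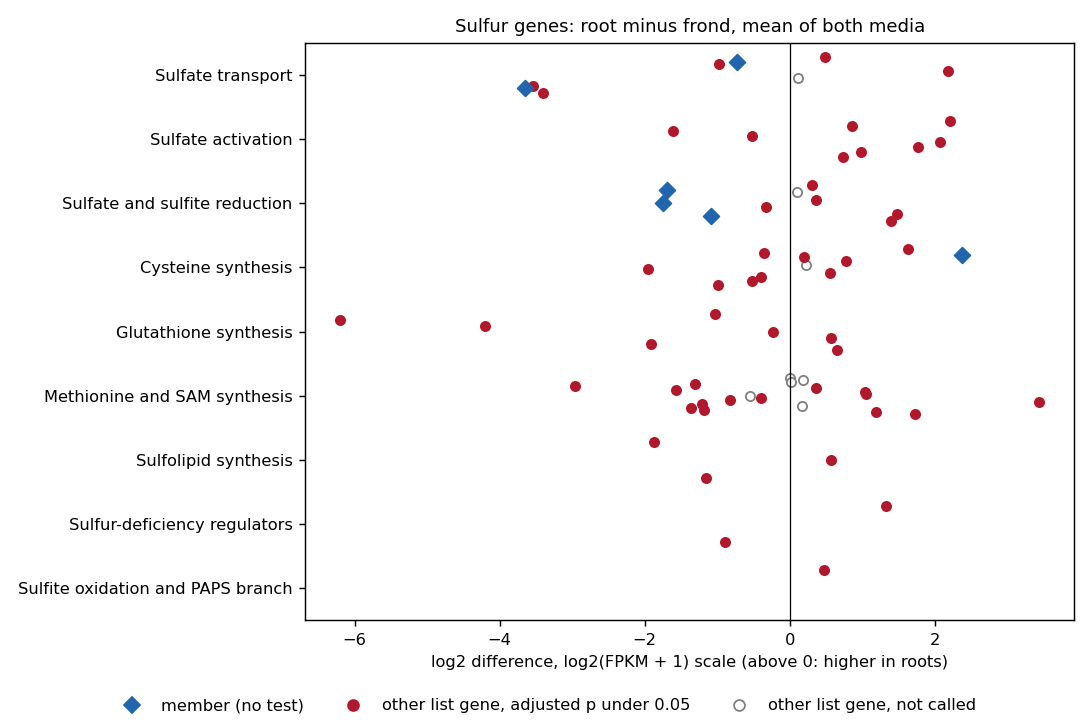
Root minus frond, averaged over both media (horizontal axis, log2(FPKM + 1) scale, values above 0 being higher in roots), of the sulfur genes by step (vertical axis); diamonds are the 6 genes, with no test, filled circles other list genes whose adjusted p was under 0.05, open circles the rest. Of the 6 diamonds 1 is to the right of 0, serine acetyltransferase 5, and that of sulfate transporter 3.1 is the one farthest left, at -3.65.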

How the data were processed

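The 16 libraries were read in pairs of 150 bp, per the labels' protocols. HISAT2 2.0.5 and featureCounts 1.5.0-p3 are named in the submitters' processing notes, while build, annotation, settings and strand use were not given in the sources used here. Coordinates follow the deposited table. The authors deposited FPKM values per gene beside gene length and homolog. Values times length were whole multiples of 1 step for 100% of values (tolerance 0.001 reads), which gave the reads. The step implies a library size 0.886 to 1.14 times the sum of reads, by a scaling the labels do not describe, and 3 reads over 1 kb were worth 0.213 to 0.507 FPKM. The worth of 3 reads reflects counting only, while the SD given above comes from the spread between the libraries of a group. The SE comes from the limma fit, which takes a shared spread over all 4 groups and draws it towards that of other genes. For a gene it is therefore the same in fronds and roots. No 2 libraries of a group agreed within sampling noise (chi-square per degree of freedom 3.68 or more). Columns carry a tissue and a number from 1 to 8 that does not show which labelled replicate they are, so libraries are named by group and number.

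Genes whose mean reached 0.5 FPKM were kept (16598), values were transformed as log2(FPKM + 1), and group means were fitted over all 16 libraries with limma 3.58.1 (R 4.3.3, statmod 1.5.0), trended and robust, with 12 residual degrees of freedom. P-values are two-sided, adjusted by Benjamini-Hochberg over all tested genes, with a threshold of 0.05. The script was tested on simulated data for the no-phosphate contrasts only, with the same added spread between libraries for all genes. No result above rests on that test. P-values measure the spread between flasks of 1 clone. The members and lists were chosen with earlier results of these data known. The sulfur list was matched by keyword to homolog names and domains, with no gene moved by hand. Named were the 6 genes, list genes called in a contrast (for the tissues the 12 largest with at least 5 FPKM), the most abundant gene of each step and the 3 closest profiles per member. Other genes named (neighbours, second homologs, ETHYLENE INSENSITIVE 3-like 3) were chosen after their values were seen. An emptied line, 1 in all, was skipped.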

Additional observations from a re-analysis of the deposited data

How the results depend on the processing

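The direction of change of the 6 genes without phosphate was the same under every alternative run, in both tissues, and so was that of their 6 differences between tissues. The count of other sulfur genes called ranged from 4 to 9 in fronds, from 0 to 3 in roots and from 0 to 2 for the difference of the responses when single libraries were left out, and was 20 with the 8 frond libraries fitted alone. Between tissues it was 53 to 55. In roots 1 gene was called with a minimum mean of 2 FPKM, 1 by limma-voom on recovered reads and 1 without root control library 3 and root no-phosphate library 5 together, the last 2 alternatives being chosen after the data were seen. With FPKM rescaled to the same sum, sulfate transporter 1.3 (Sp07g01016) was at 103 FPKM in no-phosphate fronds, and sulfate transporter 3.1 (Sp03g01231) at 54.0 FPKM in control fronds, 59.1 FPKM in no-phosphate fronds and 6.29 FPKM in no-phosphate roots. Over all genes, leaving out a library gave 153 to 610 calls in fronds (732 with all) and 0 to 791 in roots (70 with all). Fronds fitted alone gave 1772 and roots alone 0, the same sum gave 25 in roots, plain eBayes 40, and leaving out both root libraries 1148 and 350. For the difference of the responses 0 became 2 with the same sum, with a fixed block and by limma-voom, and up to 116 without 1 library. In fronds 351 higher and 381 lower became 241 and 590 with the same sum. The cause was not tested.

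Whether frond and root libraries of the same number came from the same flask is not known, and the main fit treated all libraries as independent. Deviations from the group means correlated over 0.1 in 2 of 8 pairs (from -0.12 to 0.15). Of the frond libraries, 3 of 8 correlated best with the root library of their number. Correlations this weak, of deviations within small groups, cannot decide whether the numbers pair the tissues. With the number as a replicate block the sulfur list had 10 calls in fronds, 0 in roots and 54 between tissues, as without it. The 2 count-model tests listed among the alternatives were not run because the deposited unit is FPKM. Sulfate transporter 3.1 in control roots, with 36 to 64 reads per library, is the value most limited by depth among the 6 genes.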
